A study of Rattus norvegicus with 2 samples.

Results

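The genes described here encode the Wnt ligands, the Frizzled and other Wnt receptors, the secreted and membrane inhibitors of Wnt signaling, and the proteins that pass the signal to the nucleus. They were taken from the rat arrays by gene symbol, with no filter on their values. The list of symbols was chosen with earlier results of these data known. Of 15037 genes with a named probe set, 60 belonged to this group, and each of the 60 was read by 1 probe set. A further 7 genes of these symbols, among them Wif1, Znrf3, Tcf7 and Tcf7l2, had no probe set named by the annotation used here and were not analysed here. The study asked if oxidative stress has a part in making the basilar artery tortuous after bilateral common carotid artery (CCA) ligation. It used these arrays to compare ligated with sham-operated rats, beside real-time PCR in rats and an antioxidant treatment in rabbits. RNA came from male Sprague-Dawley rats labeled as 13 months old, 4 weeks after either bilateral CCA ligation (Ligation) or exposure of the same arteries with no ligation (Sham). Equal amounts of RNA from 4 rats were pooled in each group and hybridized to 1 Clariom S array, so there were 2 arrays and no replicates. No test, SD or p-value between Ligation and Sham was therefore possible, each difference lay between 2 pools, and the number of arrays limited the precision of every value.

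Wnt proteins are secreted signals that carry a lipid added by the acyltransferase Porcn. They bind Frizzled receptors together with the co-receptors Lrp5 and Lrp6, and the cytoplasmic protein Dishevelled (Dvl) then stops the Axin and Apc complex from degrading β-catenin, which enters the nucleus and works with TCF/LEF transcription factors. Secreted inhibitors act outside the cell, either by binding the ligand (Sfrp family, Frzb) or by blocking the co-receptor (several Dkk proteins, with Kremen1 as their receptor). In brain vessels, Wnt signaling through Fzd4 is known to build and keep the blood-brain barrier in endothelial cells.

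A signal here is the deposited linear intensity of a probe set, and a difference is the log2 of the Ligation signal less the log2 of the Sham signal. Signals of different probe sets are not compared with each other as amounts of RNA. Background was read from 23 antigenomic controls, whose sequences have no target in the rat. The brightest of them had a signal of 156.8 in Ligation and 150.9 in Sham, and a member is called above background where it exceeded this value on the same array. By this limit, 32 of the 60 members were above background on both arrays, Lef1 was above it only in Ligation, Fzd5 was above it only in Sham, and 26 were within it on both. The antigenomic signals followed the GC number in the probe set names. The brightest set on each array had GC number 3, the lowest of a range from 3 to 25. The 11 sets numbered 8 to 18 reached no higher than 44.2 on either array and the others did not go below 109.2, and no member could be paired with a control of its own GC content. A signal within background does not mean that the transcript was missing.

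Both arrays had the markers of an artery, with all 12 smooth muscle markers and 10 of 11 endothelial markers above background on both. The marker lists themselves differed between the pools. Of the smooth muscle markers, 7 of 12 were under 0.5-fold in Ligation with 0 over 2-fold (median difference -1.32, summed signal 2274660 in Ligation and 3398710 in Sham). Part of this sum came from Tagln, with 832768 and 895395, which lay near the highest signals on the arrays, 999963 and 998298. Of the endothelial markers, 6 of 11 were over 2-fold higher (median 1.21, summed signal 175239 and 96034). Fibroblast and leptomeningeal markers had differences above 0 in 11 of 11 genes (median 0.65, 1880200 and 1334350), and so did 10 of 10 macrophage (0.75, 43580 and 24106), 9 of 9 astrocyte (1.42, 328339 and 205796) and 8 of 8 oligodendrocyte markers (1.78, 36765 and 18961). The astrocyte sum came mostly from Gjb6, with 234092 in Ligation and 159201 in Sham (1.47-fold). The oligodendrocyte sum came mostly from Cldn11, with 20287 and 16630 (1.22-fold). Some other markers of these lists were higher by far more, with Aqp4 at 17.33-fold, Gfap at 15.60-fold, Mbp at 13.57-fold and Mobp at 11.86-fold. Of all 15037 named genes, 7317 had a difference above 0. Neuronal markers had a median of 0.00, with none of 9 past 2-fold. Pericyte markers had a median of 0.32, with 1 of 7 over 2-fold higher and 2 under 0.5-fold. Schwann cell markers had 0.41, with 2 of 5 over 2-fold higher. Choroid plexus and ependymal markers had -0.22, with 2 of 6 under 0.5-fold. Within background on both arrays were none of the smooth muscle, endothelial and fibroblast markers, 1 macrophage, 1 astrocyte, 2 oligodendrocyte and 3 neuronal markers. So were 1 pericyte, 2 Schwann cell and 3 choroid plexus and ependymal markers. In pooled tissue, fewer cells of a type and less RNA per cell cannot be told apart. The part that these cell types had in the values below was not tested. The differences of 18 housekeeping genes ranged from -0.50 to 0.83 with an SD across genes of 0.345, which describes these arrays and is no replicate error.

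Past 2-fold were 10 of the 60 Wnt members, 7 of them higher in Ligation and 3 lower. Those higher were Fzd6, Frzb, Lef1, Dkk2, Kremen1, Dkk3 and Nkd2, and those lower were Tcf7l1, Nkd1 and Sfrp2. Thus 11.7% of the members were over 2-fold higher, against 4.04% of all named genes, and 5% were under 0.5-fold, against 2.97% of all named genes. Among genes whose mean log2 signal was above the antigenomic limit, 7 of 33 members were over 2-fold higher and 2 of 33 were under 0.5-fold, against 5.58% and 3.34% of the 7400 named genes above the same limit. The median difference of the members was 0.04, and that of all named genes was -0.01. Within 1.5-fold were 41 of the 60 members, and the share of all named genes within 1.5-fold is not given here. Of the 10 past 2-fold, 8 were above background on both arrays, Lef1 was above it in Ligation only, and Sfrp2 was within it on both.

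**Figure D1:**
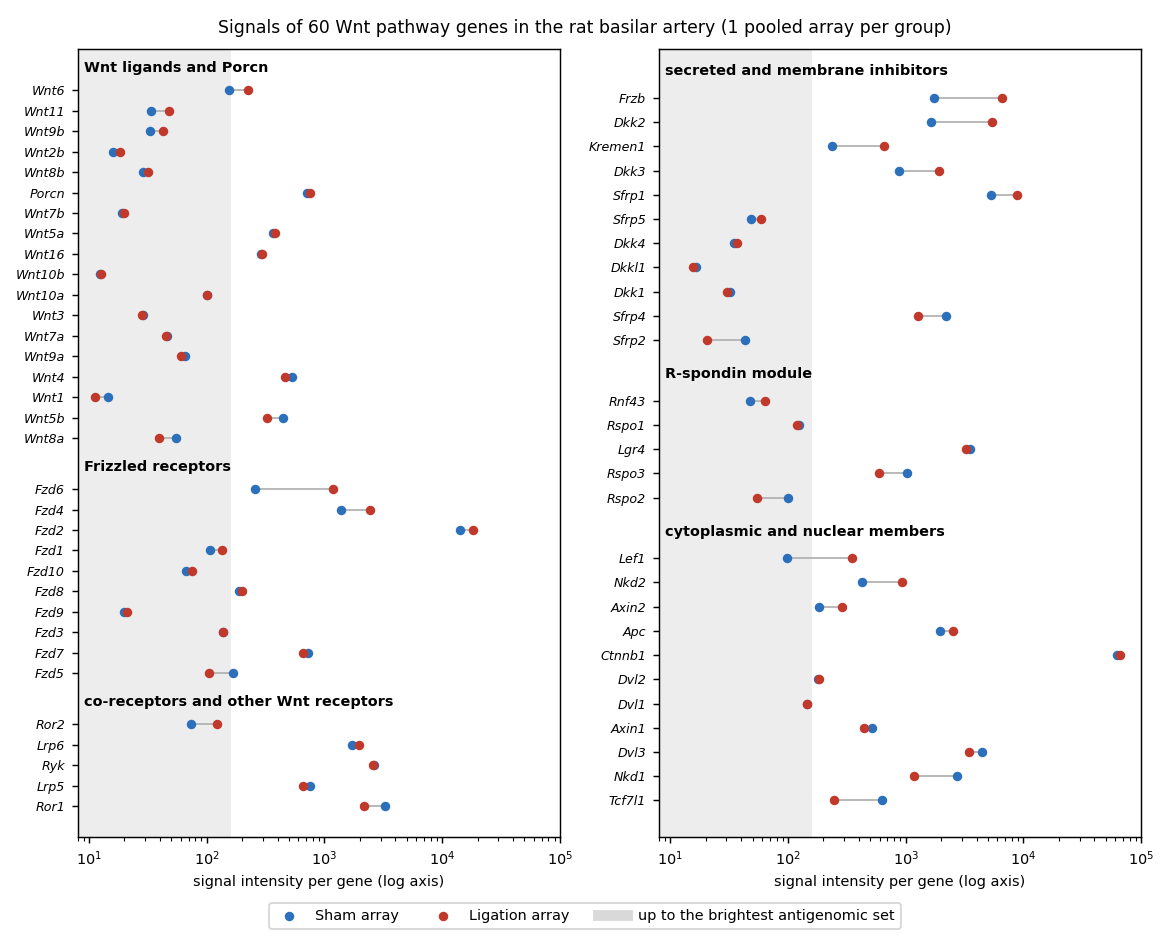
Signal intensity (log axis) of each of the 60 Wnt genes in the Sham array (blue) and the Ligation array (red), grouped by role, with the range up to the brightest antigenomic probe set shaded. Fzd6, Frzb, Dkk2, Kremen1 and Lef1 have their Ligation point well to the right of the Sham point, and most Wnt ligands lie in the shaded range on both arrays.

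The Wnt ligands differed little between the pools. None of the 17 ligands with a named probe set passed 2-fold in either direction. Of all named genes, 4.04% were over 2-fold higher and 2.97% under 0.5-fold, so few of 17 would pass at those shares. The median difference of the ligands was 0.02, and 12 of them were within background on both arrays. The 5 ligands above background on both arrays were Wnt4, Wnt5a, Wnt5b, Wnt6 and Wnt16. Wnt6 had a signal of 225.4 in Ligation and 153.6 in Sham, the largest increase of this role at 1.47-fold, and its Sham signal lay just above the limit. Wnt5b, a ligand of the β-catenin-independent branch, had 325.2 and 441.2, which is 1.36-fold lower and the largest decrease among the ligands above background. Its relative Wnt5a had 381.3 in Ligation and 368.0 in Sham, so both arrays gave nearly the same value. Wnt4 had 463.9 and 530.4, and Wnt16 had 293.0 and 288.6. Porcn, the enzyme that adds the lipid, had 757.7 and 706.3. Wnt7a and Wnt7b, the ligands best known for the barrier of brain vessels, were within background, at 45.0 and 46.2 for Wnt7a and at 19.8 and 18.9 for Wnt7b. The other ligands within background were Wnt1, Wnt2b, Wnt3, Wnt8a, Wnt8b, Wnt9a, Wnt9b, Wnt10a, Wnt10b and Wnt11, with signals from 11.3 to 101.3 and differences from -0.49 for Wnt8a to 0.50 for Wnt11.

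Among the Frizzled receptors, Fzd6 stood apart from the other 9. Fzd6, a receptor known for planar cell polarity, had a signal of 1178 in Ligation and 259.1 in Sham, which is 4.55-fold higher and the largest difference of the 60 members (2.18 on the log2 scale). It stood in place 49 of the 15037 named genes from the highest difference down. Fzd4, the receptor of the brain endothelial pathway, had 2444 and 1388, a 1.76-fold difference that did not reach 2-fold. Fzd2, with 18276 in Ligation and 14272 in Sham, was 1.28-fold higher. Fzd7 had 658.9 and 727.2, and Fzd8 had 197.9 and 186.6. Fzd5 was the only Frizzled gene with a difference below -0.2, with 104.1 in Ligation and 166.8 in Sham, so that only its Sham signal was above background. Fzd1, Fzd3, Fzd9 and Fzd10 were within background on both arrays, with differences from -0.03 to 0.33. The role as a whole had a median difference of 0.14, with 7 of 10 members above 0, beside 7317 of all 15037 named genes. Its median ranged from 0.08 with 64 added to each signal to 0.22 with quantile normalization. Endothelial markers had a median difference of 1.21 between these pools (11 of 11 above 0, none within background on both arrays), and their part in the values of Fzd4 and Fzd6 was not tested.

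The co-receptors and other Wnt receptors stayed within 2-fold, as did most named genes. Of all named genes, 4.04% were over 2-fold higher and 2.97% under 0.5-fold. Lrp5 had a signal of 652.0 in Ligation and 753.3 in Sham, and Lrp6 had 1980 and 1712, so these partners of Frizzled differed by 1.16-fold each in opposite directions. Ryk, a receptor with an inactive kinase domain, had 2603 and 2659. Ror1, a receptor tyrosine kinase that binds Wnt5a, had 2186 and 3284, a lower value by -0.59 on the log2 scale. Its relative Ror2 was 1.65-fold higher, with 121.3 and 73.4, but was within background on both arrays. The median of the 5 genes was -0.03, and -0.11 with quantile normalization.

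The genes grouped as inhibitors of Wnt signaling held 4 of the 7 members that were over 2-fold higher. All Dkk and Sfrp genes were placed in this role by symbol, and whether each inhibits Wnt signaling was not tested. Frzb, a secreted protein that binds Wnt ligands through a domain like that of the Frizzled receptors, had a signal of 6627 in Ligation and 1725 in Sham, which is 3.84-fold higher and place 73 of all named genes. Dkk2, which binds the co-receptors, had 5412 and 1649, a 3.28-fold difference in place 110. Kremen1, the membrane receptor through which Dkk proteins remove Lrp6 from the cell surface, had 649.5 and 236.0, and was 2.75-fold higher. Dkk3, a divergent member of the Dkk family, had 1936 and 873.9, and was 2.22-fold higher. These 4 genes were above background on both arrays. Sfrp1, a ligand-binding inhibitor, was higher by less, with 8859 in Ligation and 5278 in Sham (1.68-fold). Sfrp4, of the same family, went the other way, with 1263 and 2209, which is 1.75-fold lower. Sfrp2 was 2.08-fold lower, with signals of 20.7 and 43.0 that were both within background. Dkk1, Dkk4, Dkkl1 and Sfrp5 were within background on both arrays as well, with differences from -0.08 to 0.28. Over the 11 inhibitors, 4 were over 2-fold higher and 1 was under 0.5-fold, beside 4.04% and 2.97% of all named genes. Their median was 0.28, and it was 0.13 with 64 added to each signal. Among the 6 inhibitors above background on both arrays, only Sfrp4 had a difference below 0. Of the 7400 named genes whose mean log2 signal was above the limit, 3220 had a difference below 0 and 4173 above it. Fibroblast and leptomeningeal markers were higher in the same array (11 of 11 above 0, median 0.65, none within background on both arrays). So were endothelial (median 1.21), macrophage (0.75), astrocyte (1.42) and oligodendrocyte markers (1.78), whereas smooth muscle markers were lower (-1.32). The part of any of these cell types in the values of the inhibitors was not tested.

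**Figure D2:**
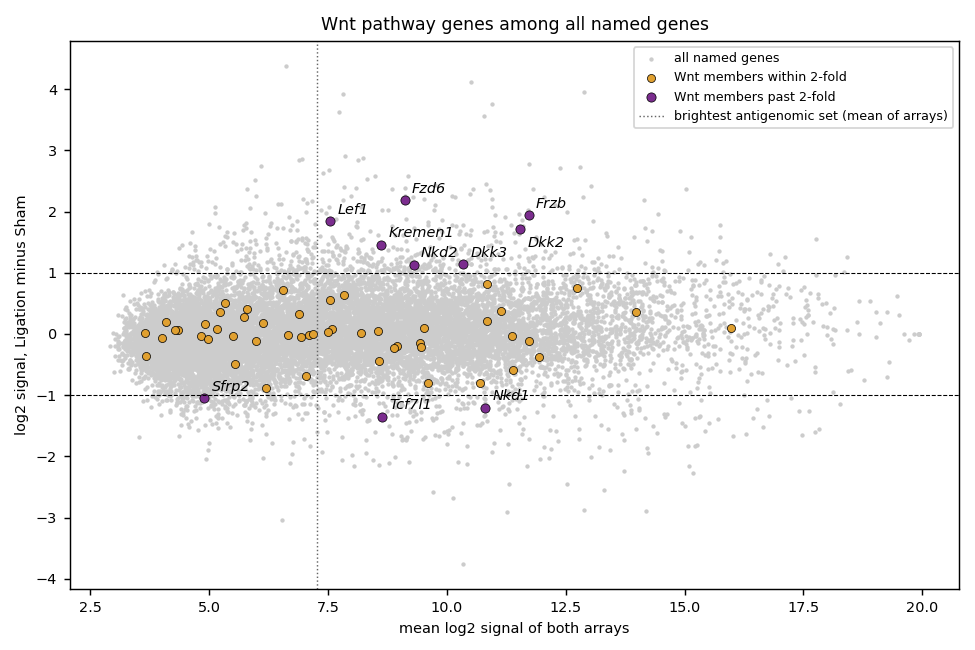
Log2 difference (Ligation minus Sham, vertical) against the mean log2 signal of both arrays (horizontal), with 1 point for each of 15037 named genes (grey) and the 60 Wnt members in color. Dashed lines mark 2-fold and the dotted line the brightest antigenomic set. The 7 higher members lie above the upper dashed line and to the right of the dotted line, and of the 3 lower ones Sfrp2 lies to its left.

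The R-spondins, secreted proteins that strengthen Wnt signaling by taking the ubiquitin ligases Znrf3 and Rnf43 off the receptors, were each below 0. Rspo3 had a signal of 588.8 in Ligation and 1026 in Sham, which is 1.74-fold lower and above background on both arrays. Rspo2 was 1.84-fold lower, with 54.2 and 99.9, and Rspo1 had 119.8 and 124.6, all within background. None of the 3 passed 2-fold, beside 4.04% over 2-fold higher and 2.97% under 0.5-fold among all named genes. Their receptor Lgr4 had 3250 and 3504, so it differed by 1.08-fold. Rnf43 had 63.5 and 48.0, within background on both arrays.

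The genes of the core proteins that pass the signal on differed by less than 1.5-fold between the arrays. Ctnnb1, which encodes β-catenin, had a signal of 66740 in Ligation and 62169 in Sham (1.07-fold, or 0.10 on the log2 scale, which became -0.07 with the trend on signal removed). Apc, a scaffold of the complex that degrades β-catenin, had 2546 and 1967, and Axin1, its partner scaffold, had 438.6 and 513.5. The Dishevelled genes Dvl1, Dvl2 and Dvl3 had differences of 0.01, 0.03 and -0.38, with Dvl1 within background. None of these 6 genes passed 1.5-fold, and 41 of the 60 members also lay within it. The share of all named genes within 1.5-fold is not given here. None of the 6 passed 2-fold either, beside 4.04% over 2-fold higher and 2.97% under 0.5-fold among all named genes. Dvl3 (-0.38) and Apc (0.37) lay beyond the housekeeping SD of 0.345.

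The feedback inhibitors and the transcription factors of the pathway gave larger differences, in both directions. Lef1, the TCF/LEF factor that activates target genes with β-catenin and is a target of the pathway itself, had a signal of 353.0 in Ligation and 98.1 in Sham, which is 3.60-fold higher and place 82 of all named genes. As its Sham signal was within background, this fold is poorly known, and it became 1.36 on the log2 scale, from 1.85, with 64 added to each signal. Tcf7l1, a factor of the same family known mainly as a repressor, had 248.1 in Ligation and 632.0 in Sham, which is 2.55-fold lower and the largest decrease of the 60 members. The Naked cuticle homologs Nkd1 and Nkd2, which bind Dishevelled and dampen the signal, lay on opposite sides. Nkd1 had 1180 in Ligation and 2719 in Sham (2.30-fold lower), whereas Nkd2 had 936.6 and 426.9 (2.19-fold higher). Axin2, the feedback scaffold most often used as a readout of β-catenin signaling, had 285.8 and 183.9, a 1.55-fold higher value that did not reach 2-fold. Among the members known as targets of the pathway, Lef1 and Axin2 were thus higher and Nkd1 was lower, and Rnf43 was within background. Smooth muscle markers were lower in the same array (12 of 12 below 0, median -1.32, none within background on both arrays) and endothelial markers were higher (11 of 11 above 0, median 1.21, none within background on both arrays). The part of either in the values of Lef1, Tcf7l1, Nkd1, Nkd2 and Axin2 was not tested.

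The promoters of these feedback genes and of Lef1 are shown because TCF/LEF factors bind letters that contain CTTTGA. Each window runs from 250 bases before to 50 bases after the annotated gene start in the rat assembly GRCr8 and was taken from RefSeq, and capitals mark CTTTGA on either strand. The window of Axin2 lies on the plus strand at chr10:94398535-94398834 and that of Nkd1 on the minus strand at chr19:34722797-34723096. The window of Nkd2 lies on the plus strand at chr1:31272282-31272581 and that of Lef1 on the plus strand at chr2:222340463-222340762.
Axin2: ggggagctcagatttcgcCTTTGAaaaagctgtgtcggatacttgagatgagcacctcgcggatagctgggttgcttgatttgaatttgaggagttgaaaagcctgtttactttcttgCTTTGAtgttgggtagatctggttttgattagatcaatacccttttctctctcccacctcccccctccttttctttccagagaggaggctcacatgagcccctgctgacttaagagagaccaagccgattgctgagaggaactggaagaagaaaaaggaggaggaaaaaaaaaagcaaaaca
Nkd1: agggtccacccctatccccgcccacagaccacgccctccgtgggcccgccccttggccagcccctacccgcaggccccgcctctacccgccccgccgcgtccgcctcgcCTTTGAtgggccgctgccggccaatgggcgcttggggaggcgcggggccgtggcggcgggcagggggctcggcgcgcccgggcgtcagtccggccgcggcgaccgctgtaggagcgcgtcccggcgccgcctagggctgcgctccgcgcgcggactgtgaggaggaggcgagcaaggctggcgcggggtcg
Nkd2: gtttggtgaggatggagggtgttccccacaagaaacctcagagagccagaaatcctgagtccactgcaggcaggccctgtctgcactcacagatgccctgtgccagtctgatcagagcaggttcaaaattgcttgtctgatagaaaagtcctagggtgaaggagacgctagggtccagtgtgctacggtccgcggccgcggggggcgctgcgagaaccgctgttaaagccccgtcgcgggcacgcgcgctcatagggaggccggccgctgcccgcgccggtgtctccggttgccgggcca
Lef1: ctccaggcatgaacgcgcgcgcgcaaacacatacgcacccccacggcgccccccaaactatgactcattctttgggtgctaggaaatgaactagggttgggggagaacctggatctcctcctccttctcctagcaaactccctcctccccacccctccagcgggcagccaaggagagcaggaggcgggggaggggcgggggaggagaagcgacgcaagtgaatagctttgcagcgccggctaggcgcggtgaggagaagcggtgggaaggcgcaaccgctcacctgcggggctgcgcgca

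Axin2 held the letters at 232 and 132 bases before its start and Nkd1 held them at 141 bases before its start. They were not found in the windows of Nkd2 and Lef1. Among the genes shown, those that held the letters, Axin2 and Nkd1, had differences of opposite sign (0.64 and -1.20). Sites outside these windows were not searched, so a gene without the letters here may hold them elsewhere. Over all members, 44 of the 60 had a promoter in the sequence table, and 6 of these (13.6%) held CTTTGA, against 14.1% of the 12435 genes named on the arrays that had one. With the longer form CTTTGAT, which contains the shorter one, 3 of 44 members (6.82%) held the letters, against 3.10% of those genes. The other members with CTTTGA were Dkk1, Dkkl1, Fzd7 and Wnt8a, and none of them was past 2-fold. Promoters of Fzd6, Dkk2, Dkk3 and Kremen1 were not analysed here.

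Other genes of the pathway were followed through 5 lists. Of 18 further extracellular and membrane Wnt genes, 3 were over 2-fold higher and 1 was under 0.5-fold, beside 4.04% and 2.97% of all named genes, and 1 of the 3 and the lower gene were within background on both arrays. Their median was 0.14, and 0.09 with array centring. Tspan12, a membrane protein that strengthens Norrin signaling through Fzd4, had a signal of 2987 in Ligation and 1434 in Sham (2.08-fold higher). Cthrc1, a secreted glycoprotein known to bind Wnt and Frizzled proteins, had 213.3 and 72.1 (2.96-fold), with its Sham signal within background. Ndp, which encodes Norrin, was 3.36-fold higher, but its 67.23 and 20.004 were both within background. Lgr5, an R-spondin receptor and known Wnt target, was 3.45-fold lower, with 43.3 and 149.4, also within background. Of 37 further cytoplasmic and nuclear genes, the median was -0.02 (-0.11 with quantile normalization). On this list 1 gene was over 2-fold higher and 0 were under 0.5-fold, near the 4.04% and 2.97% of all named genes. That gene was Sox17, an endothelial transcription factor, with 1040 and 419.7 (2.48-fold).

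In the planar polarity and calcium branches, which work without β-catenin, the median over 28 genes was -0.12 (-0.18 with quantile normalization). Only 2 of the 28 passed 2-fold, and both were lower. Among all named genes, 4.04% passed 2-fold upward and 2.97% downward. At such shares, few of 28 genes would pass in either direction. Camk2g, a subunit of the calcium/calmodulin-dependent kinase II, had 2680 in Ligation and 7918 in Sham (2.95-fold lower). Plcb1, a phospholipase C that raises cell calcium, had 317.2 and 669.9 (2.11-fold lower). Smooth muscle markers differed in the same direction (7 of 12 under 0.5-fold, median -1.32), and their part in the values of Camk2g and Plcb1 was not tested.

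Known targets of β-catenin with TCF/LEF, outside the members, differed in both directions. The list had 27 genes on the arrays, with 2 over 2-fold higher and 1 under 0.5-fold, which are shares near the 4.04% and 2.97% of all named genes. The median was 0.29, with 18 above 0, beside 7317 of all 15037 named genes. It was 0.14 with 64 added to each signal. Of the 27 genes, 9 were within background on both arrays. Fn1, which encodes fibronectin, had a signal of 536038 in Ligation and 225319 in Sham (2.38-fold higher). Vegfa, the angiogenic growth factor, had 383.9 and 144.2 (2.66-fold), with its Sham signal within background. The third was Lgr5, given above. These genes are known to answer to other signals as well.

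Barrier and transport genes of brain endothelium that are linked to Wnt signaling had the highest median of the 5 lists, at 0.92. Over 2-fold higher were 7 of the 17 genes on the arrays, beside 4.04% of all named genes, and 0 were under 0.5-fold. Slc2a1, the glucose transporter of the blood-brain barrier, had a signal of 5829 in Ligation and 1610 in Sham (3.62-fold). Cldn5, the main claudin of endothelial tight junctions, had 33685 and 10157 (3.32-fold). Abcb1a, an efflux pump of the barrier, had 11713 and 3978 (2.94-fold). The transcription factor Sox18 had 2159 and 691.9 (3.12-fold), and Itm2a had 9963 and 4830 (2.06-fold). Slc38a5, an amino acid transporter, had 421.9 and 67.8 (6.22-fold), with its Sham signal within background. Sox17, the seventh, is also on the list of cytoplasmic and nuclear genes. A further 5 of the 17 were within background on both arrays. General endothelial markers had a median of 1.21 beside this 0.92, with 6 of 11 over 2-fold and none within background on both arrays, and Cldn5 is on both lists. The part of endothelial RNA in the values of the barrier list was not tested.

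**Figure D3:**
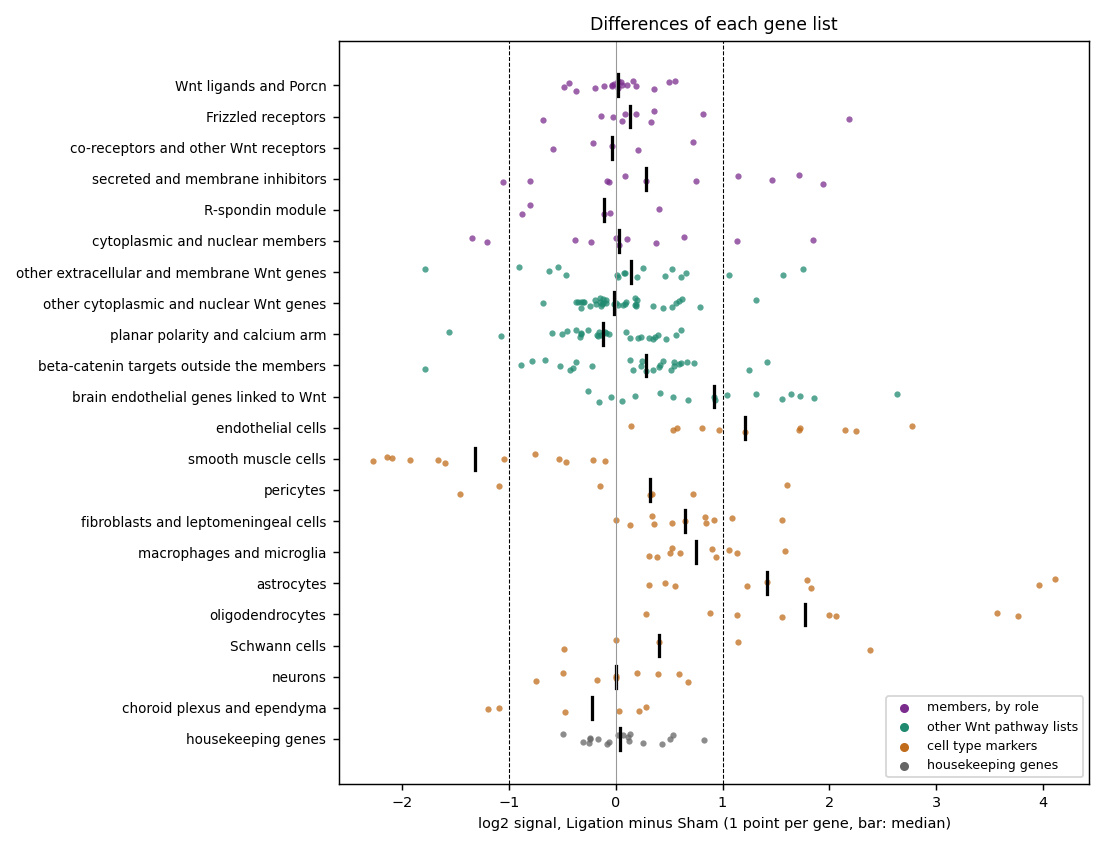
Log2 difference (Ligation minus Sham) of each gene, with 1 row for each list, a bar at its median and dashed lines at 2-fold. Members by role are purple, other Wnt lists green, cell type markers orange and housekeeping genes grey. The inhibitors spread farthest to the right among the roles after the single Fzd6 point, the barrier list has a median of 0.92, and smooth muscle markers lie below 0.

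The 10 members past 2-fold were set beside their values under other settings. Under array centring, quantile normalization, housekeeping centring, removal of the trend on signal and 64 added to each signal, each of the 7 higher members was over 2-fold higher in all 5 settings. The lowest value among them was 1.03 for Nkd2 with 64 added. Tcf7l1 and Nkd1 were under 0.5-fold in all 5 settings, with values from -1.44 to -1.16 for Tcf7l1 and from -1.29 to -1.16 for Nkd1. Sfrp2 passed in 2 of the 5 and was -0.34 with 64 added.

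**Figure D4:**
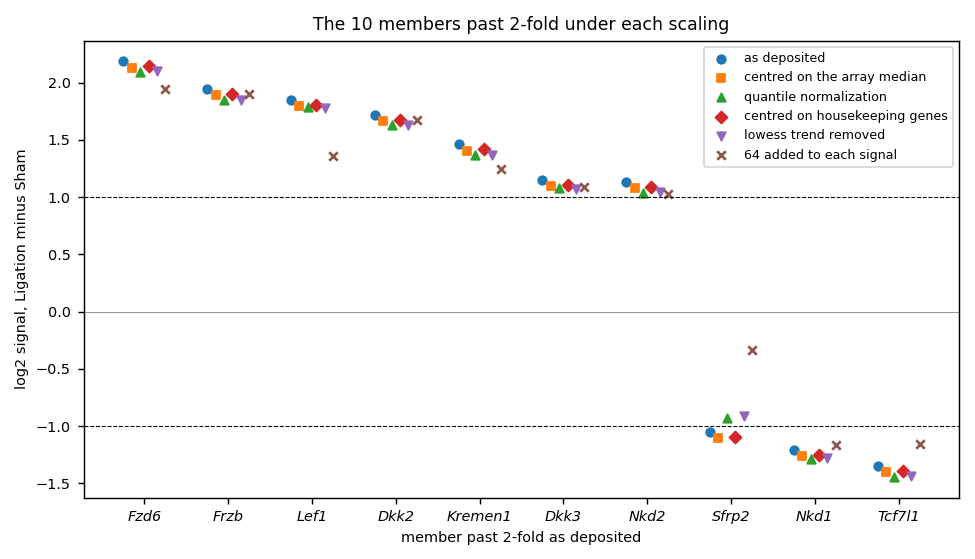
Log2 difference (Ligation minus Sham) of the 10 members past 2-fold, with 1 symbol for the values as deposited and 1 for each of 5 other settings; dashed lines mark 2-fold. All symbols of Fzd6, Frzb, Lef1, Dkk2, Kremen1, Dkk3 and Nkd2 lie above the upper line, those of Nkd1 and Tcf7l1 below the lower line, and Sfrp2 crosses it.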

How the data were processed

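The authors pooled equal amounts of RNA per group, labeled it and hybridized it to Clariom S rat arrays. The deposited table holds 1 linear signal intensity per probe set, and the submitters' processing notes name RMA and Affymetrix Expression Console. Their versions and the genome build are not given in the sources used here, nor is the step from the log2 output of RMA to this linear scale. The highest intensities were 999963 in Ligation and 998298 in Sham, and differences near this top may be understated. No columns without a sample were present. Probe sets were named through the platform annotation, with symbols updated by Entrez identifier against GRCr8, and all 15049 named probe sets matched. Of 23188 gene probe sets, 15037 genes were thus named. Log2 was taken of the intensity, averaged over the probe sets of a gene, and Sham was subtracted from Ligation with no further scaling and no filter. Genes past 2-fold were counted, and no test was run with 1 array per group. Members are all accounted for. Named in full were those past 2-fold, the largest increase and decrease above background in each role, the 3 brightest, known targets of the pathway, Ctnnb1, Lrp5 and Lrp6, and from each further list the genes past 2-fold. Other members are given for their role. The members and lists were chosen with earlier results of these data known. The calculation of differences and scalings was tested on simulated data. Promoters were searched for letters as a description. Alternatives were 4 other scalings, 64 added to each signal, the brightest probe set (the same value for every member, each read by 1 probe set), other fold thresholds and other background limits. Calculations ran in Python 3.11.15 with pandas 2.3.3 and numpy 2.4.6, the trend was fitted with statsmodels 0.14.6, and plots were drawn with matplotlib 3.10.9.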

Additional observations from a re-analysis of the deposited data

How the results depend on the processing

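With each other scaling and with 64 added to each signal, 7 members were over 2-fold higher and 2 or 3 under 0.5-fold. The medians of roles and lists moved by less than the housekeeping SD but often by more than 1.5 times. That of the inhibitors ranged from 0.13 to 0.37, and those of the ligands with Porcn (0.02, or -0.03 with array centring) and of the cytoplasmic and nuclear members (0.03, or -0.05 with quantile normalization) changed sign. With a threshold of 1.5-fold, 11 members were higher and 8 lower, and with 3-fold, 4 were higher and 0 lower, by the construction of the threshold. The shares of all named genes at these 2 thresholds are not given here. The median of the members lay between 0.00 and 0.07 under the other scalings and was -0.01 with array centring, so it has no settled sign. With the antigenomic sets of GC number 8 to 18 as the limit, chosen after seeing the data, 50 members were above background in Ligation and 47 in Sham, against 33 each with the brightest set of all. The signal over background thus limits which of the fainter members can be called detected. Of the named members, Lef1 (1.36) and Sfrp2 (-0.34) moved by more than the housekeeping SD with 64 added to each signal, and Ctnnb1, at 0.10, was -0.07 with the trend on signal removed, so its direction is not settled. With 1 array per group no replicate could be left out.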
